A study of Homo sapiens with 6 samples.

Results

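The snoRNA host genes are transcribed units whose introns carry small nucleolar RNAs (snoRNAs). Here they are 10 genes taken by name from the deposited count table, SNHG1, SNHG3, SNHG5, SNHG6, SNHG7, SNHG8, SNHG12, SNHG15, SNHG16 and GAS5. All 10 were found among its 53712 gene names, and all 10 passed the filter on low counts. They were measured by RNA-seq of poly(A)-selected RNA, 200 ng per library, from H9, an established line of human embryonic stem cells. The cells were kept in RSeT medium, which is sold for growing human stem cells in a naive-like state. In every library the cells had been given 10 nM DZNep, which blocks S-adenosylhomocysteine hydrolase, together with 5 nM TSA, which blocks histone deacetylases, beginning 24 h after passage. UNC1999 cells also received 2.5 µM UNC1999, an inhibitor of EZH2 and EZH1, the enzymes with which Polycomb repressive complexes methylate histones. UNC2400 cells received 2.5 µM of UNC2400 in its place, a poorly active N-methylated relative. RNA was collected 48 h later. There were 3 libraries with UNC1999 and 3 with UNC2400, all from 1 line and none without either compound. No label states whether the 3 were separate cultures. The p-values therefore reflect library-to-library spread, part of which may be technical.

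A host transcript is spliced, and the excised intron is trimmed back to the snoRNA inside it. Box C/D snoRNAs guide 2′-O-methylation and box H/ACA snoRNAs guide pseudouridylation of ribosomal and spliceosomal RNA in the nucleolus and Cajal bodies, while a few take part in cleaving the ribosomal RNA precursor. The spliced exons that remain have little coding potential in these genes; several of them are translated briefly and removed by nonsense-mediated decay (NMD), and several start with a 5′ terminal oligopyrimidine (TOP) tract, a C followed by an unbroken run of pyrimidines that ties translation of an mRNA to growth signals. Poly(A) selection favours the spliced host RNA, and mature snoRNAs carry no poly(A) tail.

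The start regions are shown because the TOP tract is the sequence feature for which this gene family is best known. Promoters of 8 of the 10 genes were found in the RefSeq table of build GRCh38.p14, and SNHG6 and SNHG15 were not matched. Each line gives 20 bases before and 40 bases from the annotated start, on the transcribed strand. Capitals mark the longest stretch of C followed by at least 4 pyrimidines that begins within 20 bases of the start on either side; GAS5 had none at this start. The GENCODE start of GAS5 lies 163 bases farther downstream and that of SNHG12 lies 1259 bases upstream, while those of the other 6 lie within 53 bases of the RefSeq start.
SNHG1 (chr11:62855846-62855905, minus strand): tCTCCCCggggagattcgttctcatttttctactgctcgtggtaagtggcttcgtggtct
SNHG3 (chr1:28505923-28505982, plus strand): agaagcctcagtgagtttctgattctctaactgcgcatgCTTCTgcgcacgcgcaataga
SNHG5 (chr6:85678694-85678753, minus strand): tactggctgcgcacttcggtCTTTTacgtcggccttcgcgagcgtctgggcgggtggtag
SNHG7 (chr9:136728145-136728204, minus strand): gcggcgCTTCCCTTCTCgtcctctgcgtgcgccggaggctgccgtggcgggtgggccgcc
SNHG8 (chr4:118278742-118278801, plus strand): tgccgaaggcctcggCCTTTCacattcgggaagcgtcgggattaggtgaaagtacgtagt
SNHG12 (chr1:28581834-28581893, minus strand): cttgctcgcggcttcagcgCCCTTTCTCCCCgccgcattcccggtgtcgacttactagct
SNHG16 (chr17:76557744-76557803, plus strand): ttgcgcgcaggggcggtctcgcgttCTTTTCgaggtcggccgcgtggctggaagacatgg
GAS5 (chr1:173869006-173869065, minus strand): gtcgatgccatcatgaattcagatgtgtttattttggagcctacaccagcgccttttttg

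Such a stretch was present in 7 of the 8 matched genes, and in 50.3% of the 27305 promoters of the table. In SNHG5 it began exactly at the annotated start and was 5 bases long, and in SNHG12 it was 12 bases long and began 1 base upstream. In the other 5 genes with a stretch it began farther from the annotated start, between position -19 in SNHG1 and position 20 in SNHG3. Over the whole 300 bases, on both strands, the E-box CACGTG was in 1 of the 8 promoters (7.43% of all promoters), CCAAT in 2 (35.7%) and TATAAA in 2 (12% of all). These matches describe letters in a window and no binding was measured.

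In UNC1999 cells all 10 host genes were more abundant than in UNC2400 cells, by 1.38-fold in SNHG16 to 2.02-fold in GAS5, and no member's groups overlapped. Levels are CPM, the count of a gene scaled to the size of its library, here with TMM factors, which keep a few very abundant genes from distorting that size. Differences are log2 fold changes, UNC1999 over UNC2400, with their standard error, from edgeR's quasi-likelihood test with Benjamini-Hochberg adjustment over 17596 tested genes and a threshold of 0.05. Across all tested genes 52.7% were called, 26.8% higher and 25.9% lower. In 30.9% of them every UNC1999 library lay above every UNC2400 library, and in 29.7% every one lay below. The members' median log2 fold change was 0.76, and that of all tested genes was 0.018. Single members ranked between the 85.2 and the 96.4 percentile of all tested log2 fold changes. The authors' deposited table also has all 10 positive, with log2 fold changes of 0.442 in SNHG16 to 0.992 in GAS5. In bulk libraries a change in RNA per cell and a change in the make-up of the cells cannot be told apart.

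**Figure D1:**
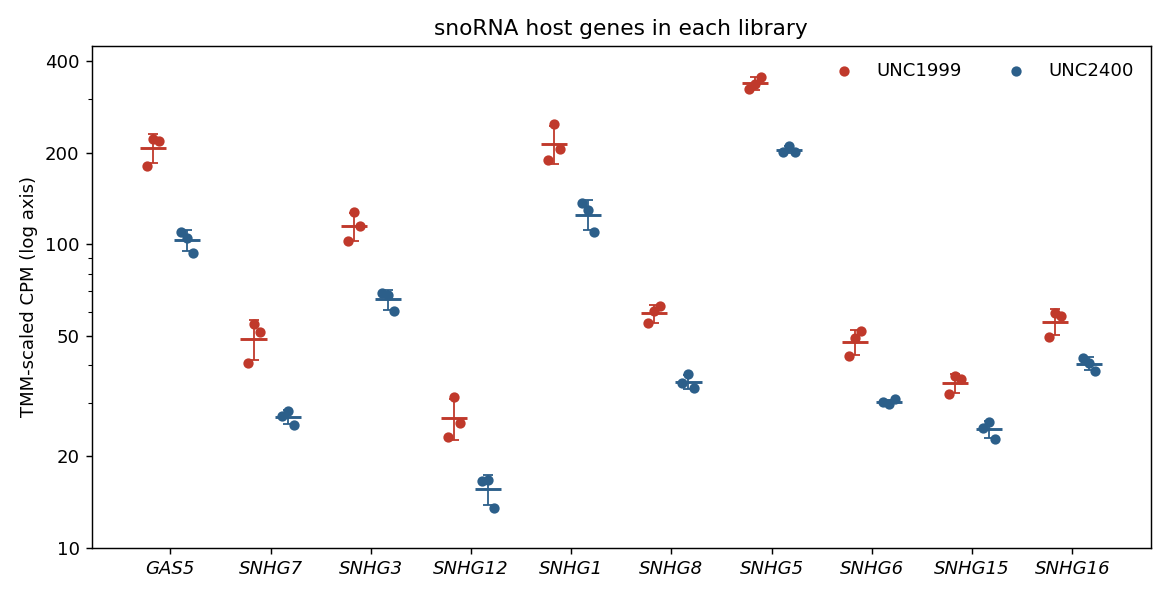
TMM-scaled CPM of the 10 snoRNA host genes on a log axis. Each point is 1 library, UNC1999 left of UNC2400, with the mean as a horizontal line and ± SD as a bar (n = 3 each); in every gene the lowest UNC1999 library stands above the highest UNC2400 library.

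Among the hosts of box C/D snoRNAs, GAS5 had the largest fold change of the 10. GAS5, a gene first isolated from growth-arrested mouse cells whose spliced RNA also binds the glucocorticoid receptor, had 182, 222 and 219 CPM in UNC1999 libraries, against 109.7, 105 and 93.7 CPM in UNC2400 libraries. The lowest UNC1999 library was still well above the highest UNC2400 library. Its means were 207.5 ± 22.5 and 103 ± 8.23 CPM (SD, n = 3 each), and its log2 fold change was 1.01 ± 0.07 (adjusted p = 1.82e-08, edgeR) with a 95% interval of 0.86 to 1.17.

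SNHG1, the host of SNORD22 and of SNORD25 to SNORD31, had 189, 248 and 206 CPM in UNC1999 libraries, against 137, 129.7 and 109 CPM in UNC2400 libraries. Its means were 214 ± 30.5 CPM in UNC1999 cells and 125 ± 14.1 CPM in UNC2400 cells (SD, n = 3 each), with the widest SD in CPM of the 10 in UNC1999 cells. Its log2 fold change was 0.77 ± 0.09 (adjusted p = 1.74e-06, edgeR).

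SNHG5, the host of SNORD50A and SNORD50B, was the most abundant member, with 324, 338 and 356 CPM in UNC1999 libraries and 202, 211 and 202 CPM in UNC2400 libraries. Both groups were tight, with means of 339 ± 16.0 and 205 ± 5.29 CPM (SD, n = 3 each). Its log2 fold change of 0.73 ± 0.05 had the smallest standard error of the 10 (adjusted p = 1.83e-08, edgeR).

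SNHG6, the host of SNORD87, had 42.7, 48.9 and 51.6 CPM in UNC1999 libraries, against 30.1, 29.8 and 30.8 CPM in UNC2400 libraries. The 3 UNC2400 libraries were almost level, and each UNC1999 library exceeded them, giving a log2 fold change of 0.66 ± 0.07 (adjusted p = 5.52e-07, edgeR). SNHG16, the host of SNORD1A, SNORD1B and SNORD1C, had 49.5, 59.4 and 57.9 CPM in UNC1999 libraries, against 42.3, 40.5 and 38.3 CPM in UNC2400 libraries. Its groups did not overlap, and its log2 fold change of 0.46 ± 0.07 was the smallest of the 10 (adjusted p = 2.34e-05, edgeR).

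Among the hosts of box H/ACA snoRNAs, the log2 fold changes ran from 0.50 to 0.86 and so lay inside the range of the box C/D hosts. SNHG3 carries SNORA73A and SNORA73B, the U17 snoRNAs, which act in cleavage of the ribosomal RNA precursor. It had 103, 127 and 115 CPM in UNC1999 libraries, against 69.0, 68.2 and 60.1 CPM in UNC2400 libraries. All 3 UNC1999 libraries exceeded 100 CPM and no UNC2400 library reached 70 CPM; the log2 fold change was 0.80 ± 0.07 (adjusted p = 1.31e-07, edgeR).

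SNHG7, the host of SNORA17 and SNORA43, had 40.7, 54.6 and 51.3 CPM in UNC1999 libraries, against 27.1, 28.2 and 25.4 CPM in UNC2400 libraries. Replicate 1 of UNC1999 stood clearly below the other UNC1999 libraries but above all UNC2400 libraries. The log2 fold change was 0.86 ± 0.09 (adjusted p = 5.03e-07, edgeR), second to GAS5. SNHG8, which carries SNORA24, had 54.8, 60.1 and 62.6 CPM in UNC1999 libraries, against 34.9, 37.3 and 33.6 CPM in UNC2400 libraries. Its groups were far apart relative to their spread, with a log2 fold change of 0.74 ± 0.06 (adjusted p = 7.01e-08, edgeR).

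SNHG15, the host of SNORA9, had 32.1, 36.7 and 35.8 CPM in UNC1999 libraries, against 24.9, 25.9 and 22.9 CPM in UNC2400 libraries. It was the other member with a small difference, 0.50 ± 0.07 (adjusted p = 1.28e-05, edgeR). SNHG12 carries both kinds of snoRNA, the H/ACA species SNORA16A, SNORA44 and SNORA61 and the C/D species SNORD99. It was the least abundant member, with 23.2, 31.4 and 25.7 CPM in UNC1999 libraries and 16.6, 16.7 and 13.5 CPM in UNC2400 libraries. Its log2 fold change was 0.78 ± 0.10, the largest standard error of the 10 (adjusted p = 9.05e-06, edgeR).

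The libraries did not contribute evenly. UNC1999 replicate 1 had the lowest level of its group in all 10 members, and UNC2400 replicate 3 the lowest of its group in 8. On the first principal component of all tested genes, which held 67.8% of the variance, UNC1999 replicates 1, 2 and 3 stood at 20.1, 39.3 and 41.4, and UNC2400 libraries between -35.2 and -31.6. Without UNC1999 replicate 1 the members' log2 fold changes ran from 0.52 to 1.08, and all 10 stayed past the threshold.

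As a share of all counts in a library, the 10 genes together took 0.104%, 0.128% and 0.119% in UNC1999 libraries, against 0.0672%, 0.0683% and 0.0620% in UNC2400 libraries. Total counts per library were 33522942 to 34481593 for UNC1999 and 29699441 to 42345448 for UNC2400, so a floor of 3 counts corresponded to 0.0708 to 0.101 CPM per library and every member lay far above it. Within the pool of host RNA, GAS5 took 18.0% ± 0.554 of the pool in UNC1999 cells and 15.3% ± 0.485 in UNC2400 cells (SD, n = 3 each), a difference of 2.73 percentage points. SNHG16 took 4.84% ± 0.0744 in UNC1999 cells and 6.01% ± 0.143 in UNC2400 cells, and SNHG15 took 3.04% ± 0.0454 in UNC1999 cells and 3.65% ± 0.0783 in UNC2400 cells. For these 3 genes the groups did not overlap, which gives p = 0.1 in an exact two-sided permutation test, the smallest that 3 against 3 libraries allow, and 0.333 after adjustment over the 10 members. The shares of the other 7 overlapped between the groups. The shares sum to a whole, so one member's gain lowers the others. They are computed from the same CPM as the fold changes and are no separate evidence of a difference.

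**Figure D2:**
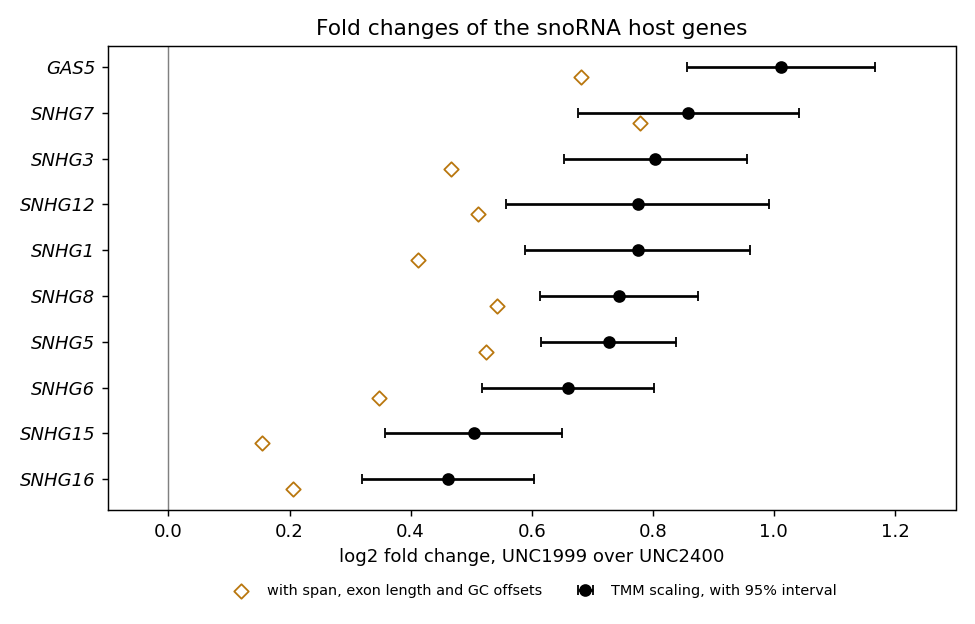
Log2 fold change of each snoRNA host gene, UNC1999 over UNC2400, ordered by size. Black points with bars are the TMM-scaled fit and its 95% interval; open diamonds are the fit that corrects for exon length, GC and span, in which every member stays above 0 but lies lower, SNHG7 by the least.

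Compared per length, the members kept their place at both ends of the order in both groups, while the middle depended on the length used. Dividing by the joined exons of all GENCODE release 29 transcripts, SNHG5 was the highest at 121 ± 5.70 CPM per kb in UNC1999 cells and 73.0 ± 1.88 in UNC2400 cells, and SNHG12 the lowest at 6.27 ± 0.978 and 3.66 ± 0.423 (SD, n = 3 each). In UNC1999 cells SNHG8, GAS5 and SNHG1 followed SNHG5 at 64.1, 57.1 and 57.1 CPM per kb, and their libraries overlapped from one to the next. SNHG6 and SNHG3 then stood apart at 38.3 and 28.1 CPM per kb. SNHG7, SNHG16 and SNHG15, at 11.2, 10.4 and 9.56 CPM per kb, overlapped in turn. In UNC2400 cells SNHG1 overlapped GAS5 and SNHG15 overlapped SNHG7, and all other neighbours were apart. By the median transcript length, which is shorter (672 bases in SNHG5 and 470 bases in SNHG8), SNHG8 stood below GAS5 and SNHG1 in both groups instead of above them, and SNHG5 and SNHG12 again stood first and last.

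The members are short genes, and short genes as a class were higher in UNC1999 cells. Over the decile of tested genes with the shortest genomic spans, 55 to 4344 bases, the median log2 fold change was 0.216 and 39.7% were called higher; over the decile with the longest spans it was -0.405 and 6.50% were called higher. Of the members, 3 were in decile 1, 6 in decile 2, where 45.5% of genes were called higher, and SNHG5 in decile 4, where 36.4% were. SNHG8, the shortest, spans 1115 bases and SNHG5, the longest, 17799 bases.

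**Figure D3:**
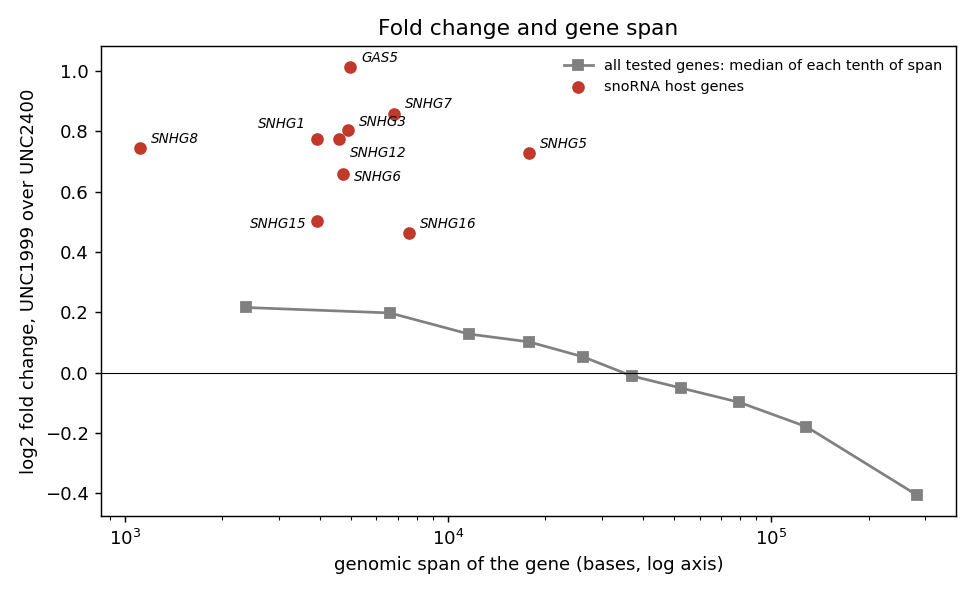
Log2 fold change, UNC1999 over UNC2400, against genomic span on a log axis. Red points are the snoRNA host genes; grey squares are the median of each decile of all tested genes at the decile's median span. All 10 members lie above the grey line, which is at 0.216 for the shortest genes and -0.405 for the longest.

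With offsets fitted in each library for GC content, exon length and genomic span, all 10 members stayed past the threshold and their median log2 fold change was 0.489, with -0.00255 over all tested genes, of which 23.4% were then called higher. GAS5 came to 0.68, SNHG7 to 0.78, SNHG8 to 0.54, SNHG5 to 0.52 and SNHG12 to 0.51. SNHG3 came to 0.47, SNHG1 to 0.41 and SNHG6 to 0.35. SNHG16 (0.21, adjusted p = 0.00452, edgeR) and SNHG15 (0.15, adjusted p = 0.0426, edgeR) were the smallest, with SNHG15 at the 67.1 percentile of all tested genes. The value of SNHG7 moved by the least, and it then exceeded GAS5. The fitted curve by itself gave a difference of 0.0758 for SNHG7 and 0.357 for SNHG1.

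Several members share exon bases with a neighbouring gene, and whether the authors counted by strand is not given in the sources used here. SNHG3 shares 5.92% of its exon bases with RCC1, the exchange factor of the GTPase Ran, on the same strand. RCC1 had 168 ± 8.63 CPM in UNC1999 cells and 146 ± 1.38 CPM in UNC2400 cells (SD, n = 3 each). It was called higher, with a log2 fold change of 0.20 ± 0.05 (adjusted p = 0.00305, edgeR). On the opposite strand, SNHG7 shares 25.2% with FAM69B, SNHG6 shares 29.3% with MCMDC2, SNHG16 shares 30.6% with the unnamed locus AC015802.6, GAS5 shares 1.16% with GAS5-AS1 and SNHG12 shares 0.188% with TRNAU1AP. FAM69B fell by 0.29 ± 0.09 on the log2 scale (adjusted p = 0.00964, edgeR). MCMDC2 (log2 fold change -0.29, adjusted p = 0.236), TRNAU1AP (-0.06, adjusted p = 0.446) and GAS5-AS1 (0.14, adjusted p = 0.783) did not pass the threshold (edgeR). None of these 5 neighbours had a log2 fold change as large as the smallest of the members. No value was taken for AC015802.6, which shares the largest part of a member's exon bases. The share of reads that such pairs exchange was not measured.

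SNHG1 starts 188 bases from SLC3A2, which runs in the other direction and encodes the heavy chain of several amino acid transporters. SLC3A2 had 309, 416 and 419 CPM in UNC1999 libraries, against 206, 202 and 196 CPM in UNC2400 libraries. The groups did not overlap, and UNC1999 replicate 1 was again the lowest of its group. Its log2 fold change was 0.92 ± 0.09 (adjusted p = 2.35e-07, edgeR), beside 0.77 in SNHG1. SNHG16 starts 83 bases from AC015802.4, an antisense gene that also runs in the other direction, for which no value was taken.

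The snoRNAs themselves were hardly counted. Of 36 snoRNAs listed for the 10 hosts, 34 had a row in the count table, 20 of these had no count in any library and 3 passed the filter on low counts. All rows together held 426 counts in UNC1999 libraries and 272 in UNC2400 libraries, against 119025 and 67865 counts for the hosts. Of the 19 snoRNAs with a row that could be placed in GENCODE release 29, 15 lie inside an annotated exon of some host transcript; 11 of these had no count, and the highest total over all 6 libraries was 36. The 4 outside any annotated host exon, SNORA73B, SNORD99, SNORD30 and SNORD1B, all had counts. A row can hold reads of the unspliced host as well as of the snoRNA, and the 2 sources were not separated.

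The sequences of the 2 H/ACA snoRNAs of SNHG3, which differ by 14 edits (93.2% identity), and of the C/D snoRNA SNORD99 are shown because SNORA73B and SNORD99 are among the 3 rows that passed the filter. They are from GENCODE release 29, build GRCh38. Capitals mark the ACA trinucleotide near the 3′ end of the H/ACA snoRNAs and the D box, CTGA, of the C/D snoRNA.
SNORA73A (chr1:28507366-28507571, plus strand): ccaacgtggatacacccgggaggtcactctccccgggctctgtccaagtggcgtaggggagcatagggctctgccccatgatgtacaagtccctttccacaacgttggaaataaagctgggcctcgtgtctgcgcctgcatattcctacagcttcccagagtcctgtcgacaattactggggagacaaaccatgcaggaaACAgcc
SNORA73B (chr1:28508559-28508762, plus strand): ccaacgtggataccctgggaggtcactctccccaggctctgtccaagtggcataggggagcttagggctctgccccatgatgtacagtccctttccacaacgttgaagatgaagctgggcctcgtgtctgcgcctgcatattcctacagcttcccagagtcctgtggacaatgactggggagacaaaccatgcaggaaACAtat
SNORD99 (chr1:28578749-28578822, minus strand): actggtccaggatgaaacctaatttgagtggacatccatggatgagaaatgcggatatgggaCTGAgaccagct

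SNORA73B had 55, 58 and 54 counts in UNC1999 libraries, against 14, 40 and 37 counts in UNC2400 libraries, a log2 fold change of 0.84 (adjusted p = 0.0133, edgeR). The groups did not overlap, but without UNC2400 replicate 1, the lowest, the log2 fold change was 0.57 and the call was lost (adjusted p = 0.0722, edgeR). SNORA73A was at 0 in every library. It lies inside an annotated host exon, like the 15 snoRNAs of which 11 had no count, and SNORA73B lies outside any. With a near-identical copy in the same host, how reads were divided between the 2 rows is also uncertain. The reason for the 0 was not tested. SNORD99 had 23, 39 and 27 counts in UNC1999 libraries, against 19, 24 and 16 counts in UNC2400 libraries (log2 fold change 0.55, adjusted p = 0.132, edgeR); its raw counts overlapped between the groups, and its TMM-scaled CPM did not. SNORD78 of GAS5 had 27, 38 and 29 counts in UNC1999 libraries, against 23, 39 and 22 counts in UNC2400 libraries (log2 fold change 0.13, adjusted p = 0.704, edgeR), and its groups overlapped as well.

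Of the snoRNAs below the filter, SNORD75 of GAS5 had 5, 6 and 2 counts in UNC1999 libraries, against 0, 1 and 1 in UNC2400 libraries, a ratio of CPM of 6.32 with an exact 95% counting interval of 1.43 to 57.7. For SNORD30 of SNHG1 the ratio was 1.81 (0.670 to 5.35) and for SNORA9 of SNHG15 it was 1.95 (0.936 to 4.27). Both intervals include 1, so no difference was detectable at this depth. SNORD1B of SNHG16 had 0, 10 and 4 counts in UNC1999 libraries, against 6, 0 and 0 in UNC2400 libraries, too uneven within each group for a ratio. Without molecular identifiers reads are not independent molecules, and these intervals cover counting error alone.

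Outside the 10 members, hosts of the same kind were mixed. Of 15 other non-coding snoRNA hosts listed, 8 were tested; 5 were called higher and 1 lower, with a median log2 fold change of 0.367. ZFAS1, the host of SNORD12 family snoRNAs, had 86.0 ± 5.93 CPM in UNC1999 cells and 42.4 ± 1.32 CPM in UNC2400 cells (SD, n = 3 each), with a log2 fold change of 1.02 ± 0.06. EPB41L4A-AS1 had 34.9 ± 4.53 CPM in UNC1999 cells and 14.8 ± 0.231 CPM in UNC2400 cells, with a log2 fold change of 1.23 ± 0.09. SNHG11 had 12.1 ± 0.593 CPM in UNC1999 cells and 5.75 ± 0.476 CPM in UNC2400 cells, with a log2 fold change of 1.07 ± 0.10. All 3 estimates were near or above the 1.01 of GAS5.

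DANCR (0.27 ± 0.05) and SNHG10 (0.43 ± 0.18, adjusted p = 0.0494, edgeR) were called higher with smaller differences; the call of SNHG10 was lost in 11 of 16 alternative fits, and that of DANCR with the offsets (log2 fold change 0.02, adjusted p = 0.805, edgeR). SNHG9 (log2 fold change 0.20, adjusted p = 0.277) and SNHG20, listed as LINC00338 (0.30, adjusted p = 0.064), did not pass (edgeR), though LINC00338 passed in 5 of the 16 alternative fits. SNHG14, the long imprinted host of the SNORD115 and SNORD116 clusters, which runs antisense over UBE3A, went the other way. It had 564 ± 47.5 CPM in UNC1999 cells and 995 ± 42.5 CPM in UNC2400 cells (SD, n = 3 each), and its log2 fold change was -0.82 ± 0.06. Its span is 440880 bases, and with the offsets its log2 fold change was -0.14 and no longer called (adjusted p = 0.0762, edgeR). With the offsets 3 of the 8 were called higher and 0 lower.

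Protein-coding snoRNA hosts, many of them ribosomal protein genes, had a median log2 fold change of 0.217: of 44 tested, 25 were called higher and 2 lower. EIF4A2, a translation initiation helicase, had 492 ± 49.6 CPM in UNC1999 cells and 289.8 ± 13.8 CPM in UNC2400 cells (SD, n = 3 each; log2 fold change 0.76 ± 0.07). RPL13A of the large ribosomal subunit (0.67 ± 0.06) and RPL12 (0.40 ± 0.06) also rose, and CNOT1, the scaffold of the CCR4-NOT deadenylase, fell by 0.49 ± 0.06 on the log2 scale. With the offsets this list came to 7 higher and 9 lower with a median of 0.00598, beside 10 of 10 higher among the members. Of 485 tested genes that GENCODE types as non-coding RNA, 28.9% were called higher and 10.7% lower, with a median of 0.18.

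**Figure D4:**
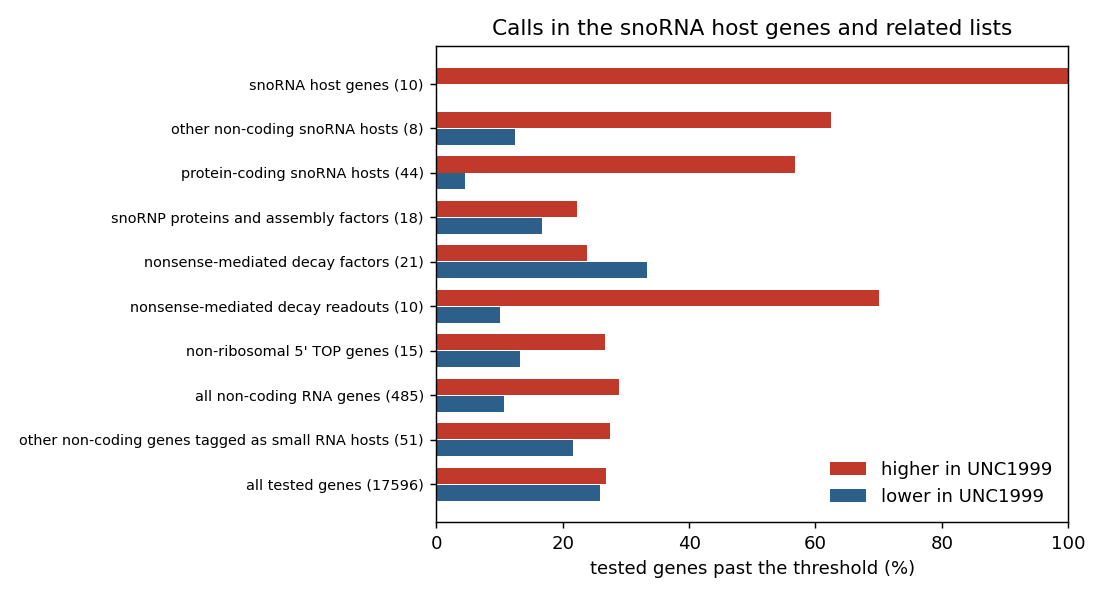
Percent of tested genes past the threshold in each list, higher (upper bar) and lower (lower bar) in UNC1999 cells; the number of tested genes stands in brackets. The snoRNA host genes are the top row and all tested genes, 26.8% higher and 25.9% lower, the bottom row.

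The proteins that bind and assemble snoRNAs had no shared direction. Of 18 tested, 4 (22.2%) were called higher and 3 (16.7%) lower, beside 26.8% and 25.9% of all tested genes. The median log2 fold change of the 18 was -0.004. The assembly factors ZNHIT3 and NUFIP1 rose by 0.34 ± 0.06 and 0.28 ± 0.06 (log2, SE), whereas NOLC1, a nucleolar and Cajal body chaperone, and the ATPase gene RUVBL1 fell by 0.25 ± 0.05 and 0.18 ± 0.05 on the log2 scale. The box C/D methyltransferase FBL (364 and 369.9 CPM in UNC1999 and UNC2400 cells) and the pseudouridine synthase DKC1 (223 and 239 CPM in UNC1999 and UNC2400 cells) did not pass the threshold.

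Since spliced host RNAs are known substrates of NMD, the factors of that pathway and transcripts often used as its readouts were counted as well. Of 21 NMD factors tested (median -0.038), 5 (23.8%) were called higher and 7 (33.3%) lower, beside 26.8% and 25.9% of all tested genes. SMG8 rose by 0.60 ± 0.06, while NBAS, the kinase SMG1 and UPF2 fell by 0.79 ± 0.09, 0.41 ± 0.06 and 0.31 ± 0.05 (log2, SE). NBAS, SMG1 and UPF2 are long genes, spanning 394420, 121600 and 123150 bases, and SMG8 spans 5848 bases. Of all tested genes in deciles 9 and 10 of span, 47.5% and 61.5% were called lower. With the offsets for span, exon length and GC, 2 NMD factors were called higher and 5 lower. UPF1, the central helicase, had 169.8 ± 2.96 CPM in UNC1999 cells and 178 ± 5.45 CPM in UNC2400 cells (SD, n = 3 each; log2 fold change -0.07, adjusted p = 0.232, edgeR). Of 10 readout transcripts, 7 were called higher and 1 lower (median 0.339). Those called higher included the stress-inducible genes ATF3 (log2 fold change 1.61 ± 0.17), GADD45A (1.07 ± 0.14) and GADD45B (0.89 ± 0.14) and the uridine phosphorylase gene UPP1 (0.34 ± 0.05). ATF3 and the GADD45 genes are also targets of stress signalling, so their level is no measure of NMD alone; the one called lower, the splicing factor gene SRSF2, had 290.4 ± 24.3 CPM in UNC1999 cells and 323 ± 6.59 CPM in UNC2400 cells (SD, n = 3 each), with overlapping libraries. No readout was called lower with library totals only, or when any library but UNC1999 replicate 1 was left out. With the offsets for span, exon length and GC, 5 readouts were called higher and 2 lower, with a median of 0.257.

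Among 15 tested non-ribosomal genes with a known 5′ TOP tract, 4 (26.7%) were called higher and 2 (13.3%) lower. Of all tested genes 26.8% were called higher and 25.9% lower. The median log2 fold change of the 15 was 0.046. The translation factors EIF4B and EEF1A1 and the growth-linked TPT1 rose by 0.40 ± 0.06, 0.30 ± 0.07 and 0.33 ± 0.06 (log2, SE), and EEF1D fell by 0.39 ± 0.05. NPM1 and PABPC1, at log2 fold changes of 0.05 and 0.03, did not pass the threshold. Some genes stand in 2 lists, TPT1, NOP56 and DKC1 among them.

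The libraries had the marker profile of pluripotent cells. POU5F1 was at 935 to 1094 CPM in UNC1999 libraries and 1361 to 1419 CPM in UNC2400 libraries. The summed level of 10 pluripotency markers was 7866 to 8954 CPM in UNC1999 libraries and 10480 to 10640 CPM in UNC2400 libraries. Of the 10, 1 was called higher and 5 lower. DNMT3B had the largest shift in CPM, at 1055 to 1424 in UNC1999 libraries and 2423 to 2588 in UNC2400 libraries. SOX2 and TDGF1 overlapped between the groups. PRDM14 was higher, at 398 to 425 CPM in UNC1999 libraries and 315 to 331 CPM in UNC2400 libraries. Of 7 naive-type markers 4 were called higher and 2 lower, and KLF17 was under 1 CPM. Their summed level was 294 to 304 CPM in UNC1999 libraries and 354 to 368 CPM in UNC2400 libraries. Most of that sum was DPPA5 and NLRP7, which were lower in every UNC1999 library than in any UNC2400 library. KLF4 and DNMT3L were higher in every UNC1999 library. Of 10 fibroblast or feeder markers 2 were called higher and 4 lower, with a summed level of 183.6 to 200.8 CPM in UNC1999 libraries and 274 to 304 CPM in UNC2400 libraries; COL3A1, LUM, DCN, PDGFRB and ACTA2 were under 1 CPM. All 6 trophoblast and all 3 endoderm markers were under 1 CPM, as were T and MESP1 of the mesoderm list. MIXL1 of that list was at 6.99 to 8.99 CPM in UNC1999 libraries and 5.38 to 7.42 CPM in UNC2400 libraries. Of the endoderm and mesoderm lists 1 marker each was called higher and 0 lower, and no trophoblast marker passed the low-count filter. The summed neural markers, nearly all TUBB3, were at 317 to 346 CPM in UNC1999 libraries and 344 to 359 CPM in UNC2400 libraries, with SOX1 and NEUROD1 under 1 CPM. The part of these shifts in the members' differences was not tested.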

How the data were processed

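RNA was measured in 6 libraries of H9 cells, grouped by the compound named in the sample titles. Counts per gene name were deposited by the authors as whole numbers. Per the submitters' processing notes, which give neither roles nor order, hg19 was the build and the tools were TopHat2 2.0.13, Trim Galore 0.4.0, Subread 1.5.0 and featureCounts. The authors' deposited log2 values and their comparison table, which holds test scores, p-values and log2 fold changes, were used only for the values credited to that table. The log2 values are marked by the authors as corrected for batch; which batch is not given in the sources used here, nor whether the replicate numbers stand for it.

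Counts were tested in R 4.3.3 by the two-sided quasi-likelihood F test of edgeR 4.0.16, with TMM factors, group as the only term and the default low-count filter. Levels are TMM-scaled CPM. Span, exon length, GC, overlaps and snoRNA positions were matched by gene name to GENCODE release 29, which is on GRCh38 rather than hg19, and were found for 88.3% of tested genes; offsets were smooth curves fitted with mgcv 1.9.3. Promoters came from RefSeq. Alternatives were RLE, upper-quartile and no composition scaling, DESeq2 1.42.0, limma-voom (limma 3.58.1), no and a stricter filter (1 CPM in 3 libraries), the replicate number as a block, the offsets, the block with offsets (added after the data were seen) and leaving out each library. Scripts were tested on simulated data.

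The 10 members and the comparison lists were chosen with earlier results of these data known. Named were all members, every tested other non-coding host, up to 4 genes of each other list with the smallest p, hosted snoRNAs with counts, and identity markers. UPF1, SRSF2, FBL, DKC1, NPM1, PABPC1, SLC3A2 and the genes sharing exon bases with members were named after their values were seen.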

Additional observations from a re-analysis of the deposited data

How the results depend on the processing

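All 10 members stayed called higher in all 16 alternatives; their log2 fold changes ran from 0.15 (SNHG15, with offsets) to 1.08 (GAS5, without UNC1999 replicate 1), and with each library left out in turn 10 were called higher and 0 lower. Libraries with the same replicate number had weakly positive correlations of their deviations from the group means (0.0237, 0.0839 and 0.124). Of the 6 libraries, 5 correlated best with their own number in the other group. Whether the numbers mark a shared batch was not tested. With the number as a replicate block the members' log2 fold changes were 0.46 to 1.01 and all 10 were called. All genes came to 4867 higher and 4695 lower with this block. Counts of the lists depended more on the processing. With the offsets for span, exon length and GC, alone and with the replicate block, other non-coding hosts came to 3 higher and 0 lower, protein-coding hosts to 7 and 9, NMD factors to 2 higher and NMD readouts to 2 lower; snoRNP proteins came to 6 lower with offsets and 7 with the block as well. With library totals only, 7 TOP genes were higher and 1 lower, 8 snoRNP proteins were higher and 0 NMD readouts lower. Without the low-count filter 2 snoRNP proteins were higher, and DESeq2 and limma-voom each called 4 protein-coding hosts lower. Leaving out 1 library gave 3642 to 4925 genes higher and 3951 to 5151 lower in all, for higher and lower calls 4 to 6 and 1 to 1 in other non-coding hosts, 20 to 25 and 2 to 7 in protein-coding hosts (7 without UNC1999 replicate 1), 2 to 4 and 2 to 5 in snoRNP proteins, 4 to 5 and 5 to 7 in NMD factors, 6 to 7 and 0 to 1 in NMD readouts and 3 to 4 and 1 to 2 in TOP genes. SNORD78, never called, ran from -0.025, its one change of sign, without UNC1999 replicate 2, to 0.24 without UNC2400 replicate 2. The cause of these changes was not tested. With the block LINC00338 passed (0.31, adjusted p = 0.0268). Of 34 snoRNA rows 20 held no count, and low counts limit the precision of the others; each member had at least 408 counts in every library.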

Other observations

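Apart from the 10 members, 51 tested non-coding genes were tagged by GENCODE as hosts of small RNAs. Among them were hosts of microRNAs and the other non-coding snoRNA hosts already described. Of the 51, 14 (27.5%) were called higher and 11 (21.6%) lower, near the 26.8% and 25.9% of all tested genes. The median log2 fold change of the 51 was 0.149. GENCODE tags 9 of the 10 members in the same way, all but GAS5. NEAT1, the scaffold RNA of paraspeckles, had 67.7, 146 and 79.9 CPM in UNC1999 libraries, against 29.2, 28.7 and 28.2 CPM in UNC2400 libraries (log2 fold change 1.77 ± 0.19, adjusted p = 9.12e-07, edgeR). Its UNC2400 libraries were level and its UNC1999 libraries varied widely, all above them. MALAT1, its genomic neighbour and a speckle-associated RNA, had 93.7 ± 26.2 CPM in UNC1999 cells and 106 ± 19.0 CPM in UNC2400 cells (SD, n = 3 each; log2 fold change -0.17, adjusted p = 0.342, edgeR). MIAT and RMST, non-coding RNAs expressed in neural cells, fell by 0.74 ± 0.11 and 0.87 ± 0.10 on the log2 scale. MIR205HG, the host of miR-205, rose by 1.22 ± 0.22 at low levels. It had 2.37 ± 0.533 CPM in UNC1999 cells and 1.01 ± 0.0834 CPM in UNC2400 cells (SD, n = 3 each). These genes were chosen after their values were seen.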
